A study of Mus musculus with 34 samples.

Results

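The genes described here are 41 DNA repair and DNA damage checkpoint genes, chosen by a rule that lists gene names and uses no values, of 37583 genes listed for mouse liver. They comprise 5 checkpoint kinases and partners, 5 genes of the chromatin response at breaks, 4 of break end processing, 10 of homologous recombination, 2 RecQ helicases, 3 genes of Fanconi crosslink repair, 5 of non-homologous end joining, 2 of single-strand break repair, 1 of mismatch repair and 4 of nucleotide excision repair. All 41 were found, all under the symbols that the annotation gives. Each passed the filter on low values in mRNA, and 36 passed the filter in nascent RNA.

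The KO group carried floxed alleles of Setd8 and the Alb-Cre transgene (genotype Setd8lox/lox-Alb-Cre), and the other group is labelled wild type (WT). Both groups were F1 mice of C57Bl6 and CBA parents, 45 days old, and the labels do not say whether WT animals carried the floxed allele or Cre. Setd8, also named Kmt5a, Set8 or PR-Set7, encodes the enzyme that puts the first methyl group on lysine 20 of histone H4. Its exon 7 is the floxed one, and Alb-Cre is active in hepatocytes. The labels do not say which other cells of the liver kept the gene. Polyadenylated RNA was sequenced in 3 KO and 3 WT libraries on Ion Proton chips. Nascent RNA was sequenced in 1 KO and 1 WT library by each of 2 methods. In the first, ethynyl uridine (EU) was injected at 25 mg per kg 30 min before death and labelled nuclear RNA was captured. In the second, isolated nuclei ran on for 3 min with bromouridine triphosphate (Br). The labels do not tie each mRNA library to its own animal, so p-values measure only the spread between these libraries, which may be technical.

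As background, cells meet broken DNA in layers. The kinases ATM and ATR sense breaks and stalled replication and act through CHK2 and CHK1 to hold the cell cycle. ATM also marks the histone variant H2AX, which recruits MDC1 and the ubiquitin ligases RNF8 and RNF168, and these bring in 53BP1. That last step also needs methylated lysine 20 of histone H4, the residue on which Setd8 acts. Breaks are then sealed by end joining, at any cell cycle stage, or copied from the sister chromatid by homologous recombination, which works after DNA has been replicated. Adult hepatocytes divide rarely, and genes of replication-coupled repair are known to be transcribed most in cycling cells. Base damage, crosslinks, mismatches and bulky adducts each have their own repair enzymes.

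Promoter sequence was available for 31 of the 41 members, from RefSeq on build GRCm38.p6, as windows of 250 bases before and 50 after the transcription start. Those of Parp1 and Rad54l are shown because these members had the smallest unadjusted p-values in mRNA. Each is printed 5′ to 3′ in the direction of its gene. Capitals mark a match to CCAAT, the box that the factor NF-Y binds, searched on both strands together with TTTGAA, TTTGGCGC, TTTCCCGC and TTTCGCGC.
Parp1 (chr1:180568641-180568940, plus strand): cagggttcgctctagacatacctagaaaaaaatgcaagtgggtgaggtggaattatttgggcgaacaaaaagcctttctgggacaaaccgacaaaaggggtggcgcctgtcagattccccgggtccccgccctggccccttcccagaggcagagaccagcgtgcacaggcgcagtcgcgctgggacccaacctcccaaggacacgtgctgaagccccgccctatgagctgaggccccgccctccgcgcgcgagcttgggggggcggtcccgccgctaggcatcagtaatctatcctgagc
Rad54l (chr4:116123641-116123940, minus strand): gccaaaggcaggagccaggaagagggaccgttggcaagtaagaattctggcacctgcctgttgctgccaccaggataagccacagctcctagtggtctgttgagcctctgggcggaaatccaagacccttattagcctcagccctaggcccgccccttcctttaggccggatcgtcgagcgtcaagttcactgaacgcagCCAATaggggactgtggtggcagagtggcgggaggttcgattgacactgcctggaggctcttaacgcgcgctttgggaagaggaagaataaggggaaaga
The Parp1 window held none of the 5 words and the Rad54l window held CCAAT alone. CCAAT stood in 18 of the 31 member windows (58.1%), against 37.9% of 27025 windows, the first listed for each gene. The word TTTGAA, the core of the cell cycle homology region, stood in 2 member windows (6.45%), against 18.1% of all windows. Words bound by E2F, a family of factors that times S-phase genes, were found in 7 member windows (22.6%), against 1.91% of all windows and 2.48% of the 17492 windows of protein-coding genes. TTTCCCGC accounted for 6 of these and TTTCGCGC for 1, and TTTGGCGC for none. Matches to different words overlapped in the Rnf8 window alone, between CCAAT and TTTGAA. The 7 matches are shown with their flanks so that the windows holding such a word can be compared. Capitals mark the match, and GCGGGAAA is TTTCCCGC read on the other strand.
Bard1 (chr1:71103164-71103191, minus strand): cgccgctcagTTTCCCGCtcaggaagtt
Brca2 (chr5:150522443-150522470, plus strand): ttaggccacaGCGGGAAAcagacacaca
Chek2 (chr5:110839821-110839848, plus strand): gggattagccGCGGGAAAccaagacgtc
Mdc1 (chr17:35841472-35841499, plus strand): cttcagcctgTTTCCCGCcggtagccgc
Msh6 (chr17:87975055-87975082, plus strand): tcctcccgacTTTCCCGCcagcggcggc
Rad51c (chr11:87404478-87404505, minus strand): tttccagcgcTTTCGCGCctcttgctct
Xrcc6 (chr15:82016313-82016340, plus strand): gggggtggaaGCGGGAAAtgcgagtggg
These are matches of letters in windows that differ in base composition, and a match is not a bound site. The mRNA log2 differences of these 7 genes ranged from -0.68 for Bard1 to 1.03 for Rad51c, and none of the 7 passed the test described next.

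Sums of the scaled mRNA values ran from 18069344 to 25820906 per library, and reads re-estimated from the rounding of those values from 15641449 to 27108677. WT replicate 3 stood apart from the other libraries. It had 20077 genes above 0, where the others had 24497 to 26247, and it lay at 121 on a first principal component holding 43.9% of the variance, where the others lay between -46.2 and -6.11. EU libraries held 5583983 reads (KO) and 10833287 reads (WT), and Br libraries 2317840 (KO) and 3156055 (WT). Setd8 mRNA had scaled values of 1199, 1040 and 1075 in KO and 593, 615 and 1076 in WT, a log2 difference of 0.59 (limma adjusted p = 0.244), and of 0.87 (limma adjusted p = 0.0198) where WT replicate 3 was left out. It was not lower in the libraries labelled KO, and a count over the whole gene tests the loss of 1 exon only in part. KO and WT below mean the libraries so labelled. The hepatocyte markers summed to between 1899675 and 2214198 in KO and between 1919874 and 3038560 in WT, and albumin was the most abundant of them in every library.

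The first comparison asked which repair and checkpoint mRNAs differed between KO and WT livers. None of the 41 passed an adjusted p under 0.05 with limma, where 2.71% of the 16813 genes tested did. The smallest adjusted p-values belonged to Parp1, lower in KO at 0.67 times the WT level, and Rad54l, higher at 2.91 times. A log2 difference above 0 was found in 21 members (51.2%), where 50.2% of all genes had one, with a median of 0.07 where that of all genes was 0.00. An unadjusted p under 0.05 was reached by 7 members (17.1%), 5 higher and 2 lower in KO, where 20.0% of all genes reached it, 10.2% higher and 9.78% lower. With edgeR on re-estimated reads no member was called, where 2.81% of all genes were, and 7 had an unadjusted p under 0.05. DESeq2 called 2 members, Parp1 lower (adjusted p = 0.0121) and Rad54l higher (adjusted p = 0.0446), where it called 10.7% of all genes. Livers are mixtures of cell types, and a change in the number of cells of a type cannot be told apart from a change in RNA per cell.

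The 3 KO values and the 3 WT values did not overlap in 13 members (31.7%), 9 of them higher and 4 lower in KO, where 26.0% of all genes tested showed no overlap, 13.2% higher and 12.8% lower. An exact permutation test of 3 libraries against 3, which was not the test used here, cannot go below a two-sided p of 0.1. No single member could pass 0.05 by that test. A log2 difference of at least 1 was found in 5 members (12.2%), all higher in KO, where 8.34% of all genes were that much higher and 6.23% that much lower. These shares lie near those of all genes. The 5 members were Chek1, Rad51b, Rad51c, Rad54l and Fanci, which averaged 9.67 to 12.3 in WT, so that a few units make a large ratio. None of these 5 had a value of at least 30 in 3 libraries. Without WT replicate 3 the groups did not overlap in 18 members (43.9%), where 45.7% of all genes showed this, and 10 members (24.4%) had an unadjusted p under 0.05, where 28.4% of all genes did. Both counts were added after the distance of that library was seen, while the fit without it is 1 of the 6 that leave out a library each. That fit called 1 member, Rbbp8 (log2 1.20, limma adjusted p = 0.0331), where it called 9.91% of all genes.

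**Figure D1:**
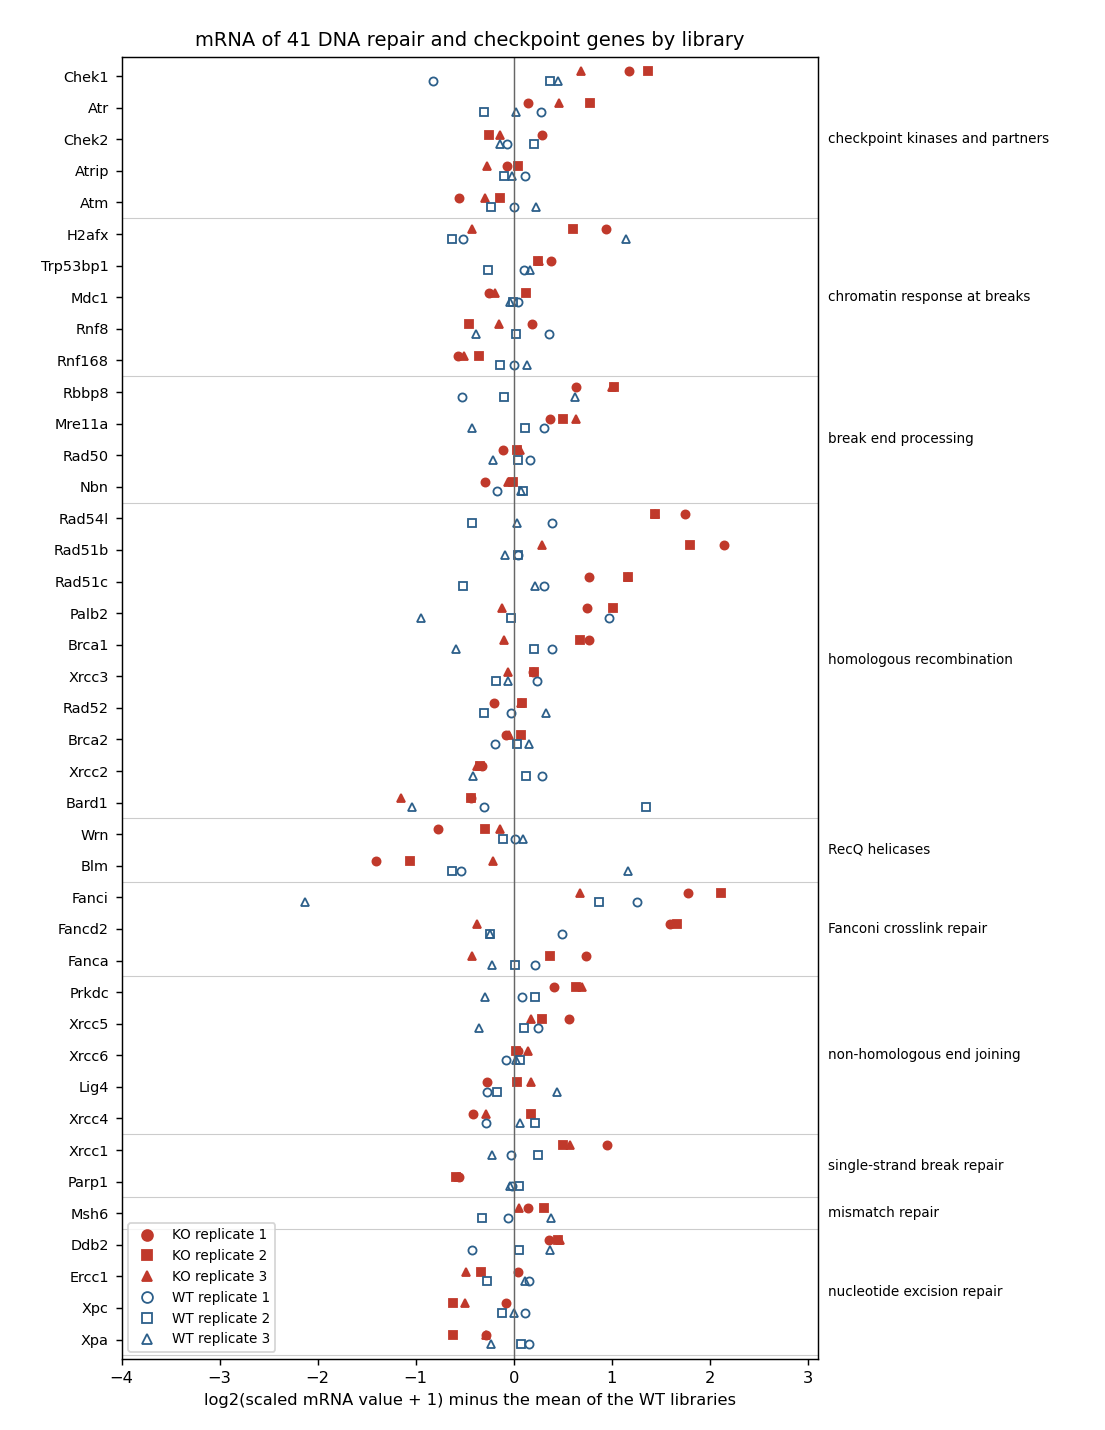
Scaled mRNA of the 41 members in each library, on a log2 axis after adding 1 and relative to the mean of the 3 WT libraries, with KO libraries as filled red symbols above the open blue symbols of WT libraries and the members grouped by role. The 3 KO and 3 WT symbols are fully apart in 13 of the 41 members, and KO replicate 3 is the lowest KO library in 15 of the 41.

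**Figure D2:**
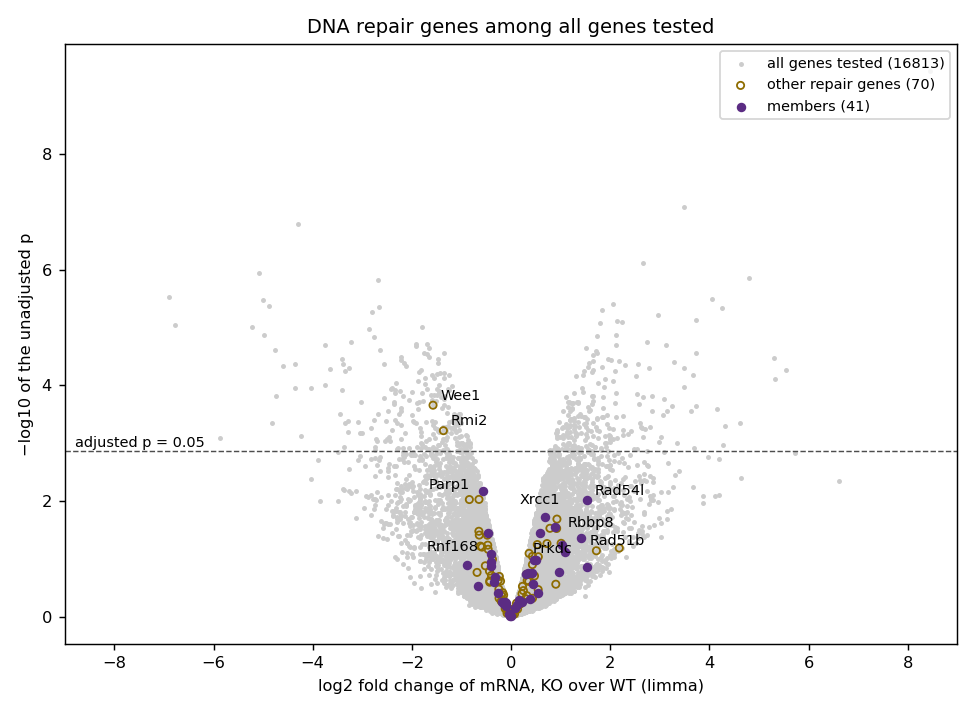
Log2 difference in mRNA, KO over WT, against the -log10 of the unadjusted limma p for 16813 genes in grey, 70 other repair genes as open circles and the 41 members as filled circles, with names on members under an unadjusted p of 0.05 and on called other repair genes. No member lies above the dashed line that marks an adjusted p of 0.05, and Wee1 and Rmi2 lie above it on the side lower in KO.

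Compared per kilobase of the longest annotated protein-coding transcript, the level of the members varied widely within a library group. Mean scaled values per kilobase ran from 5.67 to 248 in KO, with a median of 33.4, and from 2.48 to 277 in WT, with a median of 33.2. The highest levels were those of Parp1 (186 per kilobase in KO, 277 in WT), Xpc (194 in KO, 253 in WT) and the intron-less H2afx (248 in KO, 211 in WT). At the low end stood Fancd2 (5.81 in KO, 2.48 in WT), Fanci (5.67 in KO, 2.58 in WT), Rad51c (6.51 in KO, 3.13 in WT), Chek1 (6.76 in KO, 3.25 in WT) and Rad54l (10.0 in KO, 3.31 in WT). The least abundant members are genes of homologous recombination, crosslink repair and the replication checkpoint, and the most abundant serve nucleotide excision, single-strand breaks and chromatin.

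Among the checkpoint kinases, Chek1, the kinase downstream of ATR, had scaled values of 27, 31 and 19 in KO and 6, 15 and 16 in WT. Every KO value lay above every WT value, by 3 units between the nearest libraries, and the log2 difference was 1.08 (SE 0.53, limma adjusted p = 0.309). Atr itself had 214, 333 and 266 in KO and 235, 156 and 197 in WT. The groups overlapped, since KO replicate 1 lay below WT replicate 1, and the difference was 0.46 (SE 0.26, adjusted p = 0.362). Its exons overlap 2 antisense genes and a small nuclear RNA gene on the same strand, and reads of these cannot be parted where counting used no strand. Atm, the kinase that answers double-strand breaks, had 119, 159 and 143 in KO and 176, 149 and 206 in WT (log2 -0.33, SE 0.24, adjusted p = 0.492). Chek2, its downstream kinase, had 72, 49 and 53 in KO and 56, 68 and 53 in WT. The Chek2 groups overlapped throughout, with a log2 difference of -0.04 and a 95% confidence interval from -0.74 to 0.66. Atrip, the partner that brings ATR to single-stranded DNA, averaged 191 ± 21.2 in KO and 204 ± 15.2 in WT (SD, n = 3 each), and its exons share 1147 bases with Trex1.

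Of the chromatin response genes, Rnf168, the ubiquitin ligase that marks chromatin for 53BP1, had 249, 290 and 261 in KO and 372, 335 and 407 in WT. All KO values were lower than all WT values, and the difference was -0.47 (SE 0.19, unadjusted p = 0.0352, limma adjusted p = 0.212). Trp53bp1, which encodes 53BP1, had 319, 290 and 293 in KO and 263, 203 and 274 in WT. Its groups were apart in the other direction, at a log2 difference of 0.30 (SE 0.20, adjusted p = 0.472). The gene shares 2130 exon bases with Tubgcp4 on the opposite strand. H2afx, the gene of the histone that is phosphorylated around breaks, had 474, 374 and 183 in KO and 172, 159 and 545 in WT. Its widest values came from WT replicate 3 and its groups overlapped (log2 0.37, SE 0.52, adjusted p = 0.752). Without WT replicate 3 the 2 WT values were both below the 3 KO values, at a log2 difference of 0.94. Mdc1, the adaptor that reads phosphorylated H2AX, averaged 375 ± 54.7 in KO and 402 ± 11.7 in WT. Rnf8, the first ubiquitin ligase at a break, averaged 493 ± 109 in KO and 546 ± 139 in WT. Neither of these last 2 groups separated, and Rnf8 shares 1542 exon bases with an annotated gene on its own strand.

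End processing trims breaks for recombination. Rbbp8, which encodes CtIP, the factor that starts resection, had 134, 175 and 172 in KO and 59, 80 and 133 in WT. KO replicate 1 exceeded WT replicate 3 by 1 unit only, and the other libraries were well apart (log2 0.89, SE 0.33, unadjusted p = 0.0287, limma adjusted p = 0.193). Mre11a, the nuclease of the MRN complex, had 120, 132 and 145 in KO and 115, 101 and 69 in WT. The groups did not overlap (log2 0.50, SE 0.28, adjusted p = 0.36). The other 2 subunits stayed close between groups. Rad50, the ATPase, averaged 246 ± 15.5 in KO and 248 ± 33.0 in WT, with a confidence interval of the log2 difference from -0.47 to 0.46. Nbn, the scaffold that binds ATM, averaged 285 ± 29.3 in KO and 311 ± 31.8 in WT.

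In homologous recombination 3 of 10 genes (30%) had higher values in every KO library than in any WT library, where 13.2% of all genes tested did. Rad54l (ENSMUSG00000028702), a DNA translocase that helps strands to pair, had 35, 28 and 28 in KO and 13, 7 and 10 in WT. The lowest KO value, 28, stood far above the highest WT value, 13, with a log2 difference of 1.54 (SE 0.46, unadjusted p = 0.00967, limma adjusted p = 0.116, and from 0.0446 to 0.391 over the alternatives). Rad54l shares 1184 exon bases with Lrrc41 on the opposite strand. Rad51b, a paralog that assists filament assembly, had 46, 36 and 12 in KO and 10, 10 and 9 in WT. The WT values lay within 1 unit of each other, and KO replicate 3 lay just above them (log2 1.41, SE 0.59, unadjusted p = 0.0431, adjusted p = 0.231). Another such paralog, Rad51c, had 21, 28 and 28 in KO and 15, 8 and 14 in WT (log2 1.03, SE 0.47, adjusted p = 0.268). These 3 genes averaged 9.67 to 12.3 in WT, so that a few units make a large ratio.

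The genes of the BRCA complexes overlapped between groups. Brca1, the tumour suppressor that directs breaks to recombination, had 107, 100 and 58 in KO and 82, 72 and 41 in WT. In each genotype replicate 3 was the lowest, and the difference was 0.45 (SE 0.38, limma adjusted p = 0.572), and 0.15 without WT replicate 3. Brca2, which loads the recombinase, had 117, 130 and 120 in KO and 108, 127 and 138 in WT, a log2 difference of -0.02 with a confidence interval from -0.55 to 0.51. Bard1, the partner of BRCA1, had 40, 40 and 24 in KO and 44, 140 and 26 in WT. Its WT mean rested on replicate 2, and the difference was -0.68 (SE 0.60, adjusted p = 0.588), and -0.0037 without that library. Palb2, the bridge between BRCA1 and BRCA2, averaged 25.7 ± 9.71 in KO and 19.0 ± 12.8 in WT. Xrcc2 and Xrcc3, further recombinase paralogs, and the annealing factor Rad52 had log2 differences of -0.35, 0.12 and -0.01, all with overlap.

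The 2 RecQ helicases, which unwind recombination intermediates, both had lower means in KO. Wrn, the Werner syndrome helicase, had 121, 169 and 189 in KO and 209, 193 and 222 in WT. The groups did not overlap, although KO replicate 3 and WT replicate 2 differed by 4 units (log2 -0.40, SE 0.24, limma adjusted p = 0.405). Blm, the Bloom syndrome helicase, had 58, 74 and 134 in KO and 107, 100 and 349 in WT. Replicate 3 was the highest in each genotype, the groups overlapped, and the difference was -0.89 (SE 0.53, adjusted p = 0.397), and -0.31 without WT replicate 3.

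Fanconi crosslink repair was represented by 3 genes at low levels. Fanci, which pairs with FANCD2 on crosslinked DNA, had 29, 37 and 13 in KO and 20, 15 and 1 in WT. The log2 difference of 1.52 (SE 0.93, limma adjusted p = 0.416) leaned on the single unit of WT replicate 3 and was 0.46 without that library, and the groups overlapped. Fancd2 had 42, 44 and 10 in KO and 19, 11 and 11 in WT. KO replicates 1 and 2 stood above every WT library and KO replicate 3 below them all (log2 0.96, SE 0.64, adjusted p = 0.454, and log2 1.63 without KO replicate 3). Fanca, of the core complex that ubiquitinates the pair, had 75, 58 and 33 in KO and 52, 45 and 38 in WT. In all 3 genes KO replicate 3 was the lowest KO library, and the 3 values summed to 146, 139 and 56 in KO and 91, 71 and 50 in WT.

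In non-homologous end joining, Prkdc, the catalytic subunit of DNA-PK, had 201, 235 and 245 in KO and 160, 176 and 123 in WT. All KO values were higher, with a log2 difference of 0.58 (SE 0.23, unadjusted p = 0.036, limma adjusted p = 0.214). The Ku subunits that hold the broken ends differed less. Xrcc5 (Ku80) averaged 355 ± 49.4 in KO and 282 ± 58.8 in WT, with overlap. Xrcc6 (Ku70) averaged 372 ± 17.6 in KO and 354 ± 17.5 in WT, and its log2 difference had a confidence interval from -0.33 to 0.47. The ligase gene Lig4 and its partner Xrcc4 had differences of -0.02 and -0.17, with overlap in both.

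Single-strand break repair held the 2 members of opposite direction with p-values among the smallest. Parp1 (ENSMUSG00000026496), the enzyme that senses nicks and builds poly(ADP-ribose), had 727, 711 and 725 in KO and 1062, 1115 and 1044 in WT. Each group was tight, with means of 721 ± 8.72 in KO and 1074 ± 36.9 in WT (SD, n = 3 each), and the groups were far apart. The log2 difference was -0.57 (SE 0.16, unadjusted p = 0.00669, limma adjusted p = 0.098, and from 0.0121 to 0.379 over the alternatives). Xrcc1, the scaffold that PARP1 recruits, had 335, 245 and 258 in KO and 170, 205 and 148 in WT. Its KO values were all higher (log2 0.68, SE 0.23, unadjusted p = 0.0186, adjusted p = 0.156). Msh6, the mismatch sensor, had 202, 226 and 190 in KO and 176, 146 and 238 in WT, which overlap.

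Nucleotide excision repair removes bulky and ultraviolet damage. Xpc, the damage sensor of the global branch, had 869, 599 and 652 in KO and 993, 847 and 919 in WT. KO replicate 1 lay within the WT range and the other 2 below it (log2 -0.40, SE 0.20, limma adjusted p = 0.32). Xpa, which verifies the lesion, had 180, 142 and 180 in KO and 244, 231 and 187 in WT, with no overlap (log2 -0.40, SE 0.22, adjusted p = 0.375). Ddb2, the ultraviolet damage sensor and a known p53 target in human cells, had 99, 106 and 107 in KO and 57, 80 and 100 in WT. Only KO replicate 1 and WT replicate 3 crossed, by 1 unit, and the difference was 0.43 (SE 0.29, adjusted p = 0.46). Ercc1, of the nuclease that cuts beside the lesion, averaged 70.3 ± 14.0 in KO and 84.0 ± 13.1 in WT.

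**Figure D3:**
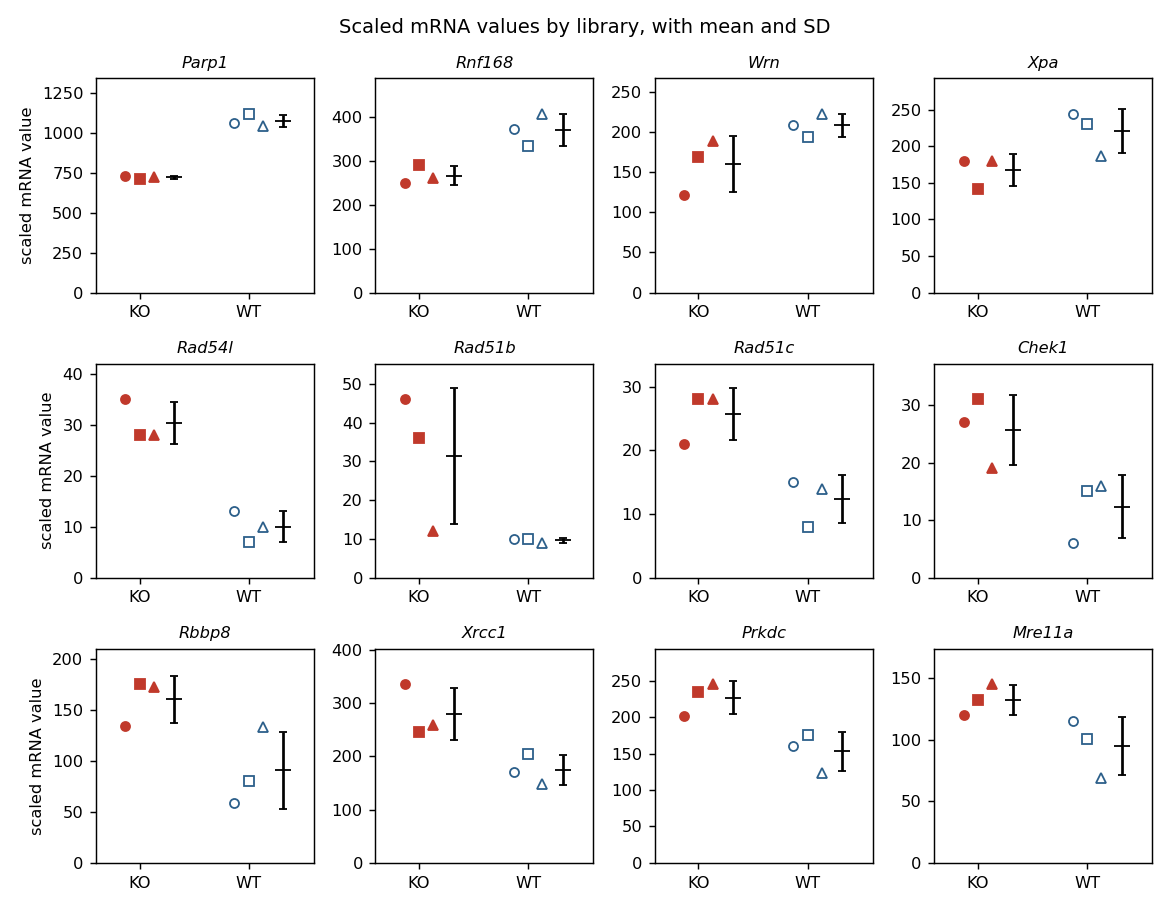
Scaled mRNA values of 12 of the 13 members without overlap (all but Trp53bp1) in KO (filled red) and WT (open blue) libraries, with circles, squares and triangles for replicates 1, 2 and 3 and a black bar for the mean with its SD. Parp1, Rnf168, Wrn and Xpa in the top row are lower in KO without overlap, and the other 8 are higher in KO without overlap, with Rbbp8 and Rad51b the closest, at 1 and 2 units between the groups.

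A second list held 71 other repair and checkpoint genes, from clamp loaders and polymerases to glycosylases, and 70 were tested. With limma none was higher and 2 were lower in KO (2.86%), where 1.35% of all genes tested were higher and 1.36% lower. The median log2 difference was -0.03, where that of all genes was 0.00. Wee1 (ENSMUSG00000031016, chromosome 7), the kinase that holds CDK1 inactive before mitosis, had 156, 203 and 114 in KO and 510, 439 and 431 in WT. The highest KO value was under every WT value, and the gene fell by 1.57 on the log2 scale (SE 0.25, limma adjusted p = 0.0221). Rmi2 (ENSMUSG00000037991, chromosome 16), a subunit of the complex that works with the Bloom helicase, had 78, 62 and 72 in KO and 213, 191 and 150 in WT. It fell by 1.36 on the log2 scale (SE 0.25, adjusted p = 0.0348).

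Both calls were lost in fits that left out a library and that called fewer of all genes. Without KO replicate 2, for example, 13 of all genes were called higher and 15 lower, where the full fit called 227 and 228. Wee1 was no longer called without KO replicate 1 or 2 or WT replicate 1 or 2, at limma adjusted p up to 0.0965, and Rmi2 kept its call without WT replicate 3 but lost it without any of the other 5 libraries, at up to 0.187. Over the settings run their log2 differences stayed between -1.77 and -1.36 for Wee1 and between -1.51 and -1.25 for Rmi2. Next in order of p came Uimc1, which brings BRCA1 to ubiquitin chains, and Fancl, the ubiquitin ligase of the Fanconi core complex. Uimc1 had 424, 459 and 401 in KO and 630, 592 and 806 in WT (log2 -0.65, limma adjusted p = 0.115). Fancl had 123, 113 and 81 in KO and 204, 172 and 187 in WT (log2 -0.84, adjusted p = 0.115). Neither overlapped between groups and neither passed the test.

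Markers of cycling cells and of macrophages had higher levels in KO beside these results. The 10 cycling markers summed to 2299, 2480 and 574 in KO and 403, 312 and 179 in WT. All 10 had a log2 difference above 0, with a median of 2.59, and 2 were called higher by limma, Cdk1 (adjusted p = 0.0393) and Ccna2 (adjusted p = 0.0491). DESeq2, which called 10.7% of all genes, called 8 of the 10 higher, edgeR 4, the fit without KO replicate 3 called 8 and that without WT replicate 3 called 4. KO replicate 3 was the lowest KO library in all 10. The 12 markers of DNA replication summed to 2715, 2427 and 1814 in KO and 1779, 1437 and 1684 in WT, and none was called. Macrophage markers, 12 in number, summed to 20020, 23738 and 10768 in KO and 9511, 7903 and 7585 in WT, with a difference above 0 in all 12 and calls for Csf1r (adjusted p = 0.0381) and Cd14 (adjusted p = 0.0448). DESeq2 called 9 of these 12 higher, edgeR with RLE factors 3 and the fit without WT replicate 3 called 6. Without KO replicate 1 or 2 or WT replicate 1 or 2, no marker of any list was called. Lymphocyte markers summed to 438, 624 and 256 in KO and 357, 272 and 198 in WT, and none of the 11 was called. No marker of these 4 lists was at 0 in any library. Bile duct markers summed to between 1484 and 2378 in KO and between 844 and 1327 in WT, with 1 of 8 called higher, Spp1. Their median log2 difference was only 0.14, with 6 of the 8 above 0 and 2 below, and such sums are weighted to abundant markers. Stellate cell and fibroblast markers summed to between 6351 and 8158 in KO and between 3428 and 4869 in WT, with 1 of 9 called higher, Pdgfrb. DESeq2 called 2 of the 9 higher, the fit without WT replicate 3 called 3 and that without KO replicate 3 none. None of the 8 endothelial or the 10 hepatocyte markers was called by limma. DESeq2 called 1 endothelial and 1 hepatocyte marker higher, and the fit without WT replicate 3 called 1 endothelial marker. Cldn4 of the bile duct list was at 0 in WT replicate 1.

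The members did not follow that order as a whole. Their sum was 8032, 7804 and 7399 in KO and 8216, 7783 and 8323 in WT. Such a sum is weighted to abundant members, and low ones such as Chek1 and Rad54l add little to it. KO replicate 3 was the lowest KO library in 15 of 41 members (36.6%), where it was in 32.7% of all genes tested. The Fanconi genes had that order in all 3. The homologous recombination genes had it in 6 of 10, with sums of 728, 751 and 610 in KO and 697, 699 and 592 in WT. Of the members higher in KO without overlap, Chek1 (27, 31 and 19 in KO) and Rad51b (46, 36 and 12 in KO) also had it. For the others, Rad54l, Rad51c, Prkdc, Rbbp8, Mre11a, Trp53bp1 and Xrcc1, the lowest KO value was not that of replicate 3 alone. The part of the marker levels in the values of the members was not tested.

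**Figure D4:**
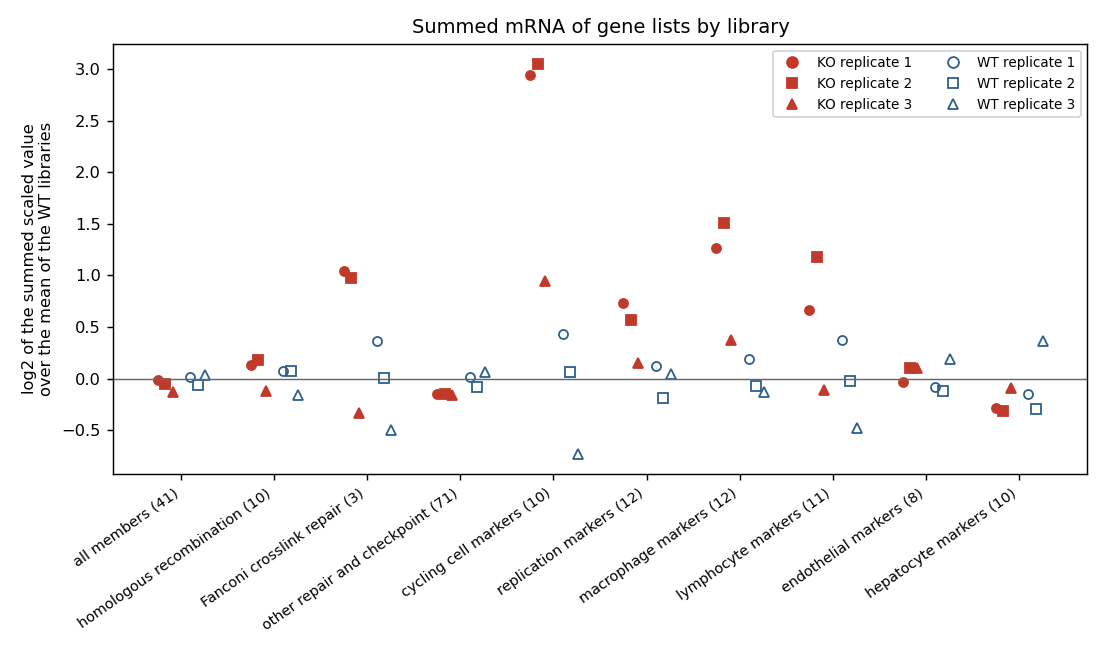
Log2 of the summed scaled mRNA of 10 gene lists in each library over the mean of the 3 WT libraries, with KO as filled red and WT as open blue symbols and the number of genes in brackets. The cycling markers sum to 2299 and 2480 in KO replicates 1 and 2 but 574 in KO replicate 3, while the sum of all members stays between 7399 and 8323 in the 6 libraries.

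The second comparison asked whether nascent RNA of the same genes differed between the KO and WT liver of each method. With 1 library per genotype there is no test, and intervals cover counting error only. Ratios are of RPKM plus 0.5, centred on the median of the 13494 genes whose RPKM averaged 1 or more. Intervals come from the reads without the added 0.5, so that a ratio can fall outside its own interval. Palb2, Rad51c, Xrcc2 and Xrcc4 were below the floor, and Rad51b had no RPKM value. Of these, Rad51c alone had read intervals clear of 0 by both methods. It had 2 EU reads in KO and 26 in WT (-5.80 to -0.68) and 16 Br reads in KO and 40 in WT (-1.81 to -0.0079). The median log2 ratio of the other 36 was -0.18 in EU and -0.04 in Br.

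In EU, 15 of the 36 members (41.7%) differed at least 2-fold, 6 higher and 9 lower in KO, where 38.0% of all genes kept did, 19.0% in each direction. In Br, 4 members (11.1%) did, 3 higher and 1 lower, where 15.2% of all genes kept did, 7.86% higher and 7.39% lower. Counting intervals excluded 0 for 27 members (75%) in EU, where they did for 67.4% of the 13249 genes matched to a read count, and for 12 members (33.3%) in Br, where they did for 37.5%. The 2 methods gave ratios of the same sign in 21 of 36 (58.3%), where 54.5% of all genes kept showed this. Ratios of the same sign with both intervals clear of 0 were found in 7 members (19.4%), where 17.8% of those genes showed this. Opposite signs with both intervals clear of 0 were found for Lig4 and Xpc (5.56%), where 10.2% of those genes showed them.

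Marker lists differed in the same nascent libraries. Of stellate cell and fibroblast markers 8 were measured, with median log2 ratios of 2.58 in EU and 1.09 in Br, and 7 were at least 2-fold higher in KO by EU and 5 by Br. The 6 bile duct markers measured had medians of 2.37 in EU and 0.90 in Br, and the 8 cycling markers 1.90 in EU and 1.00 in Br. EU reads of cycling markers were few in WT, with 5 for Top2a and 3 for Plk1, where KO had 139 and 35. Mki67 had 1 EU read in each library, and Birc5 lay at -0.01 with 29 reads in KO and 60 in WT. Of the 8 cycling markers, 7 had EU ratios above 0, and 6 had EU intervals clear of 0. The 12 macrophage markers had medians of 0.94 in EU and 0.32 in Br, the 12 replication markers 0.37 in EU and 0.28 in Br, and the 8 endothelial markers 0.01 in EU and -0.10 in Br. The 2 lymphocyte markers measured had medians of -1.21 in EU and 1.78 in Br. Hepatocyte markers had medians below 0, of -0.44 in EU and -0.51 in Br, and 6 of 10 were lower in KO by both methods with intervals clear of 0. The part of these levels in the nascent ratios of the members was not tested.

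Nascent RNA of 4 members (11.1%) was higher in KO by both methods with intervals clear of 0, where that of 8.42% of all such genes was. Atr had 976 reads in KO and 811 in WT by EU, which after centring gave a log2 ratio of 1.29 (95% counting interval 1.16 to 1.43). By Br it had 34 reads in KO and 6 in WT, a ratio of 2.93 (1.68 to 4.49). This was the largest Br ratio among the members. Whether reads of the antisense and small nuclear RNA genes that overlap its exons were counted for Atr was not tested, in nascent RNA or in mRNA. Xrcc5 had 205 EU reads in KO and 245 in WT, a ratio of 0.74 (0.49 to 1.04), and 47 Br reads in KO and 20 in WT, a ratio of 1.52 (0.89 to 2.51). Rbbp8 had 154 EU reads in KO and 175 in WT (0.73, 0.52 to 1.16) and 60 Br reads in KO and 39 in WT (0.89, 0.46 to 1.69). Rad50 had 302 EU reads in KO and 410 in WT (0.57, 0.36 to 0.80) and 92 Br reads in KO and 90 in WT (0.46, 0.04 to 0.91). In mRNA Rbbp8 alone of these 4 had groups without overlap.

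Lower in KO by both methods in the same sense were 3 members (8.33%), where 9.4% of all such genes were. H2afx had 2 EU reads in KO and 84 in WT, an interval of -7.44 to -2.47, and 198 Br reads in KO and 329 in WT (-0.28, -0.55 to -0.03). Its EU ratio was -1.55 after the added 0.5 RPKM, and 2 reads set no firm value. Fanci had 1 EU read in KO and 25 in WT (-3.16, -8.98 to -1.01) and 19 Br reads in KO and 50 in WT (-0.94, -1.80 to -0.16), and its exons share 921 bases with Polg on the opposite strand. Xrcc3 had 51 EU reads in KO and 162 in WT (-0.58, -1.13 to -0.18) and 43 Br reads in KO and 97 in WT (-0.70, -1.28 to -0.20). The mRNA of Fanci had its mean higher in KO, and that of H2afx and Xrcc3 differed by less than the spread between libraries.

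The 5 other members at least 2-fold higher in EU had Br intervals that include 0, so that Br showed no difference for them at its depth. Fancd2 had 85 EU reads in KO and 14 in WT (2.86, 2.80 to 4.56) but 4 Br reads in KO and 6 in WT (-0.09, -2.41 to 1.94). Ercc1 had 91 EU reads in KO and 53 in WT (1.77, 1.30 to 2.32) and a Br ratio of -0.28 (-0.90 to 0.32). Ddb2 had 171 EU reads in KO and 130 in WT (1.40, 1.08 to 1.76) and a Br ratio of -0.19 (-0.89 to 0.47), and its exons overlap Acp2 by 652 bases on the opposite strand. Brca1 reached 1.23 in EU (0.79 to 1.74) and -0.90 in Br (-2.33 to 0.29), and Trp53bp1 1.06 in EU (0.88 to 1.25) and -0.35 in Br (-0.78 to 0.06).

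Parp1, lower in KO mRNA, had 53 EU reads in KO and 354 in WT, a ratio of -1.67 (-2.16 to -1.30). By Br it had 92 reads in KO and 101 in WT, a ratio of 0.31 (-0.11 to 0.73). The EU ratio had the direction of the mRNA, and the Br ratio did not and its interval includes 0. Rad54l, higher in KO mRNA, had 4 EU reads in KO and 29 in WT (-1.20, -3.80 to -0.32) and 51 Br reads in KO and 82 in WT (-0.23, -0.77 to 0.28). Nascent Chek1 had 7 EU reads in KO and 29 in WT (-1.0, -2.46 to 0.20) and 59 Br reads in KO and 130 in WT (-0.69, -1.16 to -0.24), while its mRNA mean was higher in KO. Prkdc was near 0 by both, at 0.02 in EU (-0.12 to 0.16, from 620 reads in KO and 1246 in WT) and 0.23 in Br (-0.12 to 0.61).

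The other members at least 2-fold lower in EU were Msh6, Atrip, Rnf8 and Chek2. Msh6 had 63 reads in KO and 454 in WT (-1.66), Atrip 35 in KO and 219 in WT (-1.55), and Rnf8 58 in KO and 364 in WT (-1.41). Chek2 had 0 EU reads in KO and 10 in WT, with an interval that reaches up to -0.14, so that no ratio is given and its place among the 9 comes from the added 0.5 RPKM. Br ratios of these 4 had intervals that include 0, from -0.30 for Msh6 to 0.63 for Chek2. By Br, Mre11a was 2-fold higher with 38 reads in KO and 18 in WT (1.34, 0.68 to 2.42), and Bard1 2-fold lower with 5 reads in KO and 19 in WT (-1.40, -3.26 to -0.01). Of the pair with opposite signs, Xpc had EU and Br ratios of -0.79 and 0.67, and Lig4 of -0.55 and 0.51. Among the other repair genes Wee1, lower in KO mRNA, had 537 EU reads in KO and 549 in WT (0.98, 0.82 to 1.17) and 16 Br reads in KO and 10 in WT (0.96, -0.11 to 2.43).

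**Figure D5:**
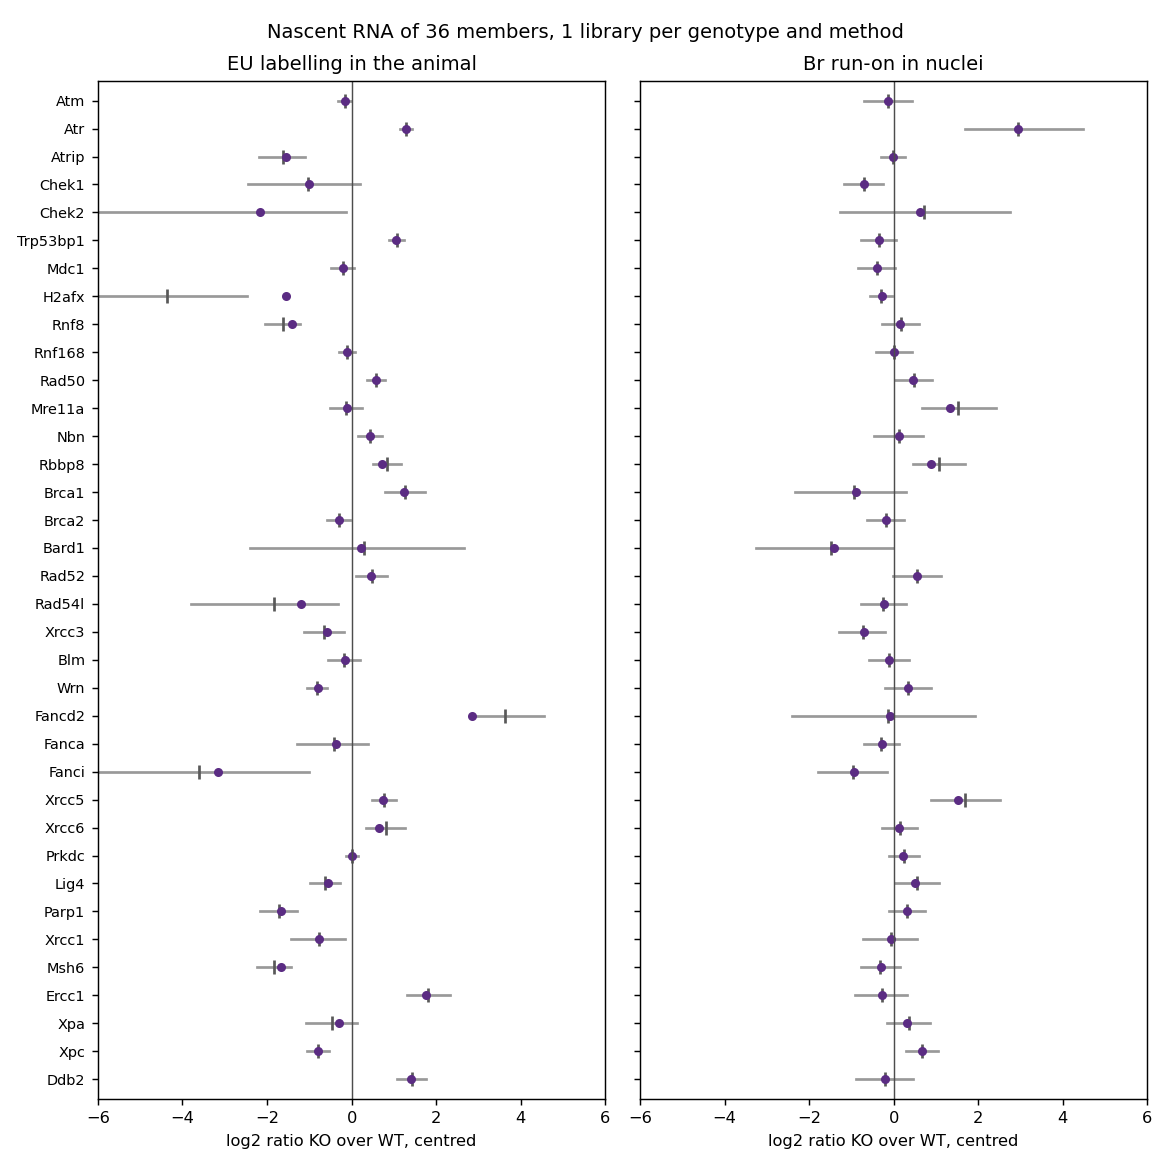
Centred log2 ratio of nascent RNA, KO over WT, for the 36 members above the floor by EU (left) and Br (right), with a dot for the ratio of RPKM plus 0.5, a tick for the ratio of reads alone where both libraries had reads, and a grey line for the 95% counting interval, drawn to -6 where it goes lower. Atr, Xrcc5, Rbbp8 and Rad50 lie right of 0 in both panels, while Fancd2 lies at 2.86 in EU and -0.09 in Br.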

How the data were processed

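Messenger RNA was measured in 3 KO and 3 WT libraries and nascent RNA in 1 KO and 1 WT library by each of 2 methods, and the 24 samples of chromatin and input were left out. The submitters' processing notes name Bowtie2, TopHat2, Cufflinks, DESeq and the build mm9. Which counter, annotation and strand setting were used is not given in the sources used here. In the deposited mRNA files the values are a score, since the authors scaled them between libraries with DESeq and rounded them to whole numbers. Reads were re-estimated from the rounding step for the count-based alternatives. The deposited nascent files hold counts per gene, and every Br count was even and was divided by 2. The authors also deposited RPKM of the nascent libraries, and the gene lengths implied there are off. Ratios were therefore taken only within a gene. The floor and the added 0.5 RPKM still rest on those lengths. The lengths thus bear on which members were kept and on the size of ratios at low RPKM.

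Genes were tested with limma 3.58.1 in R 4.3.3 (eBayes, trend and robust, two-sided) on log2 values after adding 1. The 16813 genes tested had at least 10 in 3 libraries or more. Benjamini-Hochberg adjustment ran over all of them with a threshold of 0.05. The test was also run on simulated counts, drawn independently for each library. These held no outlying library such as WT replicate 3, so that run cannot show how the test behaves with one. A fold change is on the scale of value plus 1 and understates that of low genes. Alternatives were edgeR 4.0.16 with RLE or TMM factors, DESeq2 1.42.0, no filter or a filter of 30, pseudocounts of 0.5 and 10, a replicate block and each library left out. Nascent RNA was compared as log2 ratios with exact (Clopper-Pearson) 95% counting intervals from scipy 1.17.1. Names, exon overlaps and transcript lengths came from GENCODE M21 on GRCm38, and promoter coordinates from GRCm38.p6. The build named for the deposited values is mm9. A gene's exons overlap another annotated gene's in 21 of the 41 members, 18 on the opposite strand, and such counts are uncertain where counting used no strand.

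The rule for the members lists gene names and uses no values, but the members, the 71 other repair genes and the 8 lists of cell type markers were chosen with earlier results of these data known. All 41 members are accounted for. Full values are given where the groups do not overlap, the unadjusted p is under 0.05 or the log2 difference is at least 1 in size, and for Atm, Atr, Chek1, Chek2, Trp53bp1, H2afx, Brca1, Brca2, Prkdc, Parp1, Ddb2 and Xpc. Of the other repair genes, those called and the 4 with the smallest p are named. Nascent values are given for ratios of at least 1 in size, or where both methods had 1 sign with intervals clear of 0. They are also given for Prkdc, Lig4, Rad51c, Xpc and Wee1 after their values were seen.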

Additional observations from a re-analysis of the deposited data

How the results depend on the processing

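Over all genes, DESeq2 called 883 genes higher and 921 lower in KO, and the replicate block 500 and 514, where the test as reported called 227 and 228. With a library left out these counts ran from 13 to 797 and from 15 to 869, highest without WT replicate 3. DESeq2 called 1 member higher and 1 lower, and with a library left out 0 to 1 members were called higher and 0 lower. Whether replicate numbers pair the libraries cannot be decided with 3 libraries per genotype. Deviations of same-numbered libraries had r of 0.41, -0.24 and 0.20, and those of differently numbered ones ran from -0.39 to 0.27. Under the block no member was called, while 8 of 10 cycling and 6 of 12 macrophage markers were, in place of 2 in each list. The filter of 30 kept 34 members, whose median log2 was -0.02 in place of 0.07. The median of the other repair genes, -0.03, was -0.0563 with edgeR and RLE factors, -0.0569 with DESeq2 and -0.075 with the filter of 30, and ran from -0.0814 to 0.0364 with a library left out. DESeq2 called 4 of them lower, and with a library left out 0 to 2 were. With a pseudocount of 2 RPKM, 5 members were 2-fold lower in EU, in place of 9. Members with differences near 0 changed sign. With edgeR and TMM factors Rad50 was at 0.0109 and Brca2 at 0.000555. With a library left out, log2 differences ran from -0.114 to 0.0609 for Brca2, from -0.199 to 0.0736 for Chek2, from -0.0272 to 0.553 for Fanca, from -0.158 to 0.198 for Lig4, from -0.112 to 0.0799 for Rad50, from -0.164 to 0.154 for Rad52 and from -0.329 to 0.0439 for Rnf8. The cause of these shifts was not tested. Of the other mRNA values of single genes under the alternatives, 604 kept their direction and side of the threshold, 6 gained a call and 9 lost one. These genes were the 41 members, Wee1, Rmi2, Uimc1, Fancl and Setd8. All 9 losses were of Wee1 and Rmi2, the only ones of these genes called by the test as reported. In nascent RNA 413 values of members lay within their counting interval, which can span 0, and 9 lay outside it. The 3 libraries per genotype limit mRNA, and low read numbers limit the nascent ratios of Bard1, Chek2, Fancd2, Fanci, H2afx and Rad54l.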
